A study of Mus musculus with 12 samples.

Results

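Genes of the integrated stress response and the unfolded protein response were followed here through their open chromatin, across 12 ATAC-seq libraries of mouse myeloid progenitors. The set holds 37 genes chosen by name: the kinases and phosphatase subunits that act on the translation factor eIF2, the factor Atf4 with its partners and targets, and the sensors and chaperones of the endoplasmic reticulum. Their regions were the rows that the authors' deposited tables assign to these genes, plus every called peak within 2 kb of a gene start. This gave 65 of the 73147 regions in the union of all called peaks, on the mm10 build. Of these, 36 lay at the start of 35 genes and 29 lay away from the start of 12 genes. Stc2, a secreted glycoprotein, had a known start and no peak near it, and for Cth, an enzyme of cysteine synthesis, no start was known and no region was listed. Regions away from a start could enter only because a deposited table listed them as changed, so they are described one by one and no count of them carries weight.

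The cells were granulocyte-monocyte progenitors from C57BL6 bone marrow. They carry ER-HOXA9, in which the leukaemia protein HOXA9 is joined to the estrogen receptor and blocks differentiation while estrogen is present. All 6 groups shared this fusion and a medium with serum, glutamine, stem cell factor and beta-estradiol, and each group had 2 biological replicates. Day0 cells were untreated and taken at the start. On day 2 there were cells given DMSO (Vehicle), cells given the LSD1 inhibitor GSK-LSD1 at 200 nM (LSD1i), cells given mercaptopurine, a purine analogue, at 5 uM (6MP) and cells given cerulenin, which blocks fatty acid synthase, at 5 uM (CER). The Combo group received the 3 compounds together at the same doses. LSD1 is a histone demethylase. Whether the replicates were separate animals, clones or cultures is not stated, so p-values measure the spread between these libraries.

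The integrated stress response starts when the kinases Eif2ak1, Eif2ak2, Eif2ak3 or Eif2ak4 sense haem loss, viral RNA, misfolded protein or amino acid shortage and phosphorylate eIF2. Bulk translation then falls while Atf4 protein is made, and Atf4 pairs with C/EBP factors on a composite DNA element to switch on amino acid enzymes, tRNA synthetases and regulators such as Ddit3 and Chac1. The unfolded protein response adds Ern1, which splices the Xbp1 message, and Atf6, which is cut free from its membrane and acts on the endoplasmic reticulum stress element of chaperone genes such as Hspa5.

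Start-site DNA held these elements in a minority of the genes, and most of the sites lay under called peaks. RefSeq promoters (GRCm38.p6, 250 bases before to 50 after the start) were found for 32 of the 37 genes and searched on both strands. TGATGNAAN, a loose form of the C/EBP-ATF element, occurred in 10 of the 37 promoters given for these genes (10 genes), and in 3.58% of 21263 promoters of protein-coding genes. The stricter TGATGCAAT, which the loose form includes, occurred at Aars and Nupr1 against 0.179% of all promoters. The stress element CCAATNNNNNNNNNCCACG occurred at Hspa5 alone among these genes (0.141% of all), TGACGTCA at Ppp1r15a alone (2.23%) and TGACGTGG at no gene of the set (0.705%). Windows that hold a match upstream of the start are printed below in gene direction, with the match in capitals. Chac1 and Asns are shown because their signal differed under the LSD1 inhibitor, Aars and Nupr1 for the strict element, and Herpud1, Hspa5 and Ppp1r15a for the endoplasmic reticulum and feedback arms. The start of Gpt2 also differed under the inhibitor, and its promoter held no match to any of these elements.
Chac1 (chr2:119351028-119351076, plus strand): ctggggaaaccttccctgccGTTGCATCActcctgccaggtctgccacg
Asns (chr6:7693210-7693252, minus strand): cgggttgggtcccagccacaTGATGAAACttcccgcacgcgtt
Aars (chr8:111033709-111033757, plus strand): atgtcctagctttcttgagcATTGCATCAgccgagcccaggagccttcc
Nupr1 (chr7:126625553-126625601, minus strand): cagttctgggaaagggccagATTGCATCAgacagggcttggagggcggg
Herpud1 (chr8:94386296-94386344, plus strand): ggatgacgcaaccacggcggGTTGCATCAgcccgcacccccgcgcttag
Hspa5 (chr2:34772005-34772063, plus strand): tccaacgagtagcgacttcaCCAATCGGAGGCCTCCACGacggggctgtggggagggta
Ppp1r15a (chr7:45526269-45526300, minus strand): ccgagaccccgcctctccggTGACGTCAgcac
The Chac1 match began at position -194 from the start, inside the called peak of 12 of 12 libraries, whose tallest summits lay at positions -135 to -101. At Hspa5 the summits, at positions -143 to -87, sat beside the element that began at position -65. The Nupr1 match was covered in 10 of the 11 libraries with a peak there. Vldlr, the very low density lipoprotein receptor, also holds a loose match, but its nearest peaks had their summits 1541 to 2010 bases downstream of the start and covered the match in 0 of 12 libraries. A match of letters is a description and no evidence of binding.

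Coverage at each summit was recovered from the peak lists as a whole number of fragments (the pileup). The summit signal is log2 of pileup over the library's depth, centred on the median of the 33367 regions that had a peak in every library, so a difference is relative to those regions. Depth was 2.44 to 4.55 fragments per position and peak lists held 42651 to 56398 peaks. Enrichment was weakest in 6MP replicate 1, where median signal at those regions was 16.9 times depth, and next weakest in CER replicate 2 (23.0 times), against 28.3 to 42.7 times in the rest. All 10 progenitor markers examined, among them Mpo, Elane and Kit, had a start-site peak in 12 of 12 libraries, while Pax5, Cd3e, Cd3d, Cd8a, Col1a2 and Pdgfra had none in any library. A lower signal can mean fewer cells with the site open or fewer open copies per cell, and these cannot be told apart in bulk libraries.

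The starts of these genes were open in nearly every library. A peak was called at 34 of the 36 start-site regions in all 12 libraries, against 84.6% of 12573 start-site regions of all protein-coding genes. The exceptions were 1 of the start regions of Cbs, an enzyme of transsulfuration, called in Vehicle replicate 2 alone at a pileup of 15, and the start of Nupr1, a small stress-induced nuclear protein, called in 11 libraries. Median centred signal over the start-site regions called in all libraries was 6.54 to 7.07 for these genes and 6.11 to 6.52 for all genes. Of the 36 regions, 7 also lie within 2 kb of another gene's start (Aars, Atf5, Ddit3, Eif2ak2, Ppp1r15a, Psph and Wars), and their signal cannot be assigned to 1 of the genes.

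With the LSD1 inhibitor alone, signal passed the test as lower at the starts of Chac1, Asns and Gpt2. Most of the other starts had differences below 0 that did not pass. Chac1 encodes a glutathione-degrading enzyme, Asns makes asparagine and Gpt2 is a mitochondrial alanine transaminase. Chac1 signal was 6.22 and 6.35 on Day0, 6.14 and 6.06 in Vehicle, 5.95 and 6.39 in 6MP and 6.21 and 6.38 in CER. It was 5.39 and 5.28 in LSD1i and 5.55 and 5.82 in Combo. All 4 libraries that saw the inhibitor were below all 8 that did not. The corresponding pileups were 300 and 299 fragments in Vehicle, 155 and 170 in LSD1i and 240 and 295 in Combo. In LSD1i against Vehicle, Chac1 fell by 0.77 on the log2 scale (SE 0.15, n = 2 per group; limma adjusted p = 0.00139). From the lowest difference up, it was number 53 of 11059 start-site regions of all genes.

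Asns signal was 6.01 and 5.88 in Vehicle, 5.43 and 5.45 in LSD1i and 5.64 and 5.66 in Combo. On Day0 it was 5.95 and 5.71, in 6MP 5.63 and 5.94, and in CER 5.80 and 5.93. LSD1i libraries were the lowest, and the 6MP replicates were far apart, with replicate 1 beside Combo. Gpt2 signal was 6.49 and 6.61 in Vehicle, 6.08 and 6.01 in LSD1i and 6.40 and 6.29 in Combo. On Day0 it was 6.49 and 6.32, in 6MP 6.24 and 6.69, and in CER 6.52 and 6.45. Again both LSD1i libraries were the lowest of the 12, and Combo lay between them and Vehicle. Relative to Vehicle, limma put Asns at -0.50 ± 0.14 (SE, n = 2 per group; adjusted p = 0.0292) and Gpt2 at -0.51 ± 0.15 (adjusted p = 0.0415) in LSD1i.

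**Figure D1:**
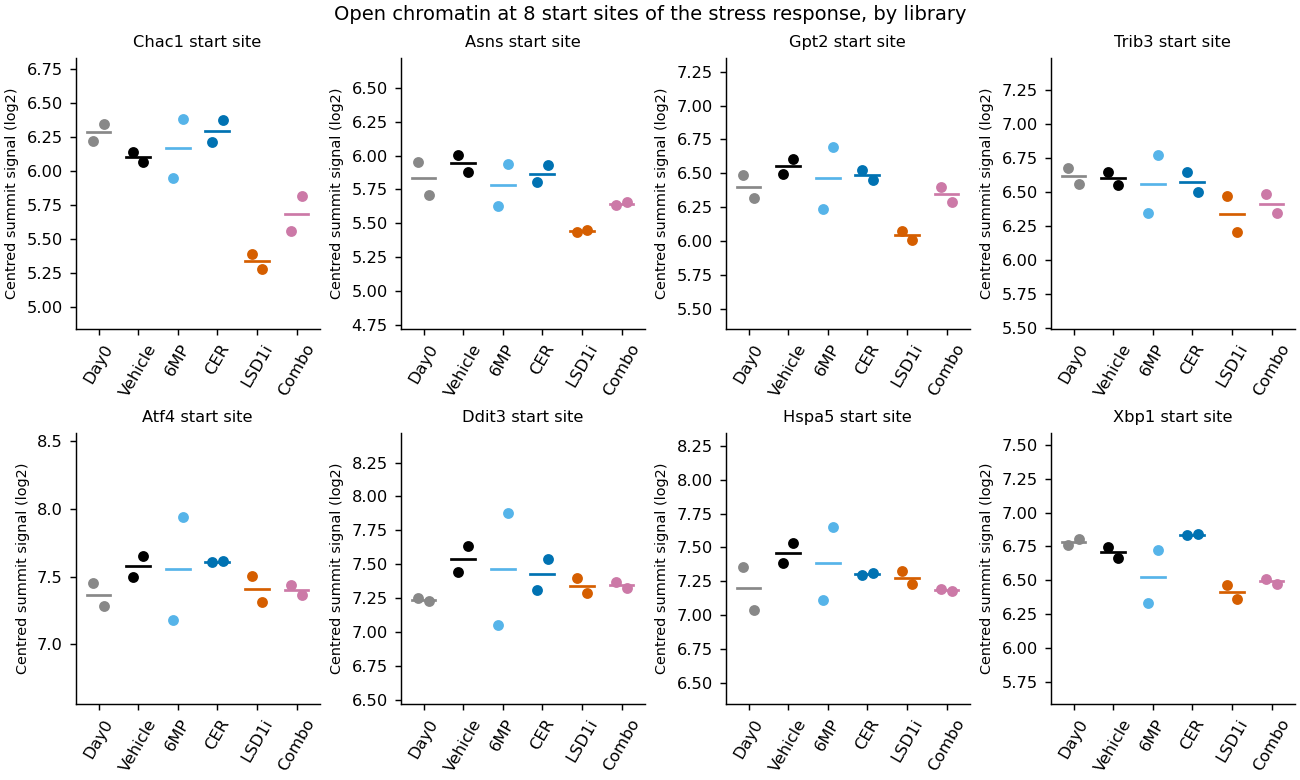
Centred summit signal (log2) at 8 start sites for each group, with 1 point per library and a bar at the mean of the 2 replicates; all panels span 2 log2 units, not starting at 0. Chac1 is lower in the 4 libraries with the LSD1 inhibitor than in the other 8, while the groups differ less at Atf4, Ddit3 and Hspa5, where the 6MP replicates are far apart.

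These 3 were the calls among 35 start-site regions tested in LSD1i against Vehicle. limma called 1.95% of the 11059 start-site regions of all genes closed, meaning lower at an adjusted p under 0.05, and 0.886% opened, and over all 41322 regions 2.05% closed and 4.00% opened. None of the start-site regions of the set was opened. The difference was below 0 at 34 of the 35, with a median of -0.18, and 82.0% of start-site regions of all genes were also below 0, with a median of -0.16. The 3 calls are not stable to every setting: with LSD1i replicate 2 left out none remained (Chac1 -0.72, adjusted p = 0.0534), without LSD1i replicate 1 or Vehicle replicate 1 Chac1 alone remained, without Vehicle replicate 2 Asns and Chac1 remained, and scaled by depth instead of centred there were 0. Scaling by depth shifts every region in this comparison by -0.16, so Chac1 then stood at -0.93, and centring by signal intensity brought the median of the set to -0.02, where Chac1 and Gpt2 remained called and Asns did not (-0.39, adjusted p = 0.0561).

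At Nupr1, called in 11 libraries, the LSD1i difference was as large as at Asns and Gpt2, -0.51 ± 0.29 (SE, n = 2 per group; 95% interval -1.06 to 0.05), but did not pass the test (limma adjusted p = 0.323). Atf4 itself had 7.49 and 7.66 in Vehicle, 7.51 and 7.31 in LSD1i and 7.44 and 7.37 in Combo, with 7.45 and 7.28 on Day0, 7.18 and 7.94 in 6MP and 7.61 and 7.62 in CER. The LSD1i and Vehicle values overlap. Ddit3, the pro-apoptotic factor CHOP, had 7.44 and 7.63 in Vehicle, 7.39 and 7.29 in LSD1i, 7.36 and 7.33 in Combo, 7.25 and 7.23 on Day0, 7.05 and 7.88 in 6MP and 7.31 and 7.54 in CER. Its groups differ by less than the 6MP replicates do. Trib3, a pseudokinase that restrains the response, had 6.65 and 6.55 in Vehicle, 6.47 and 6.20 in LSD1i, 6.49 and 6.34 in Combo, 6.68 and 6.56 on Day0, 6.34 and 6.78 in 6MP and 6.65 and 6.50 in CER. The interval of its LSD1i difference, -0.58 to 0.04, includes 0.

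Among the endoplasmic reticulum genes, Hspa5, the chaperone BiP, had 7.39 and 7.53 in Vehicle, 7.33 and 7.23 in LSD1i, 7.20 and 7.18 in Combo, 7.36 and 7.04 on Day0, 7.11 and 7.65 in 6MP and 7.30 and 7.31 in CER. Xbp1, the factor made from the spliced message, had 6.75 and 6.67 in Vehicle, 6.46 and 6.36 in LSD1i, 6.51 and 6.47 in Combo, 6.76 and 6.81 on Day0, 6.33 and 6.72 in 6MP and 6.83 and 6.84 in CER. Both genes had differences from Vehicle below 0 in LSD1i and Combo, and neither passed the test. Among all start-site regions 82.0% were also below 0 in LSD1i and 82.2% in Combo. limma gave Hspa5 -0.18 ± 0.20 and Xbp1 -0.29 ± 0.15 in LSD1i against Vehicle (SE, n = 2 per group; adjusted p = 0.634 and 0.281). By role, the median LSD1i difference was -0.17 for the kinases and phosphatase subunits, -0.23 for the factors, -0.15 for amino acid and one-carbon enzymes, -0.16 for the tRNA synthetases, -0.23 for the other targets and -0.16 for the endoplasmic reticulum branch.

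**Figure D2:**
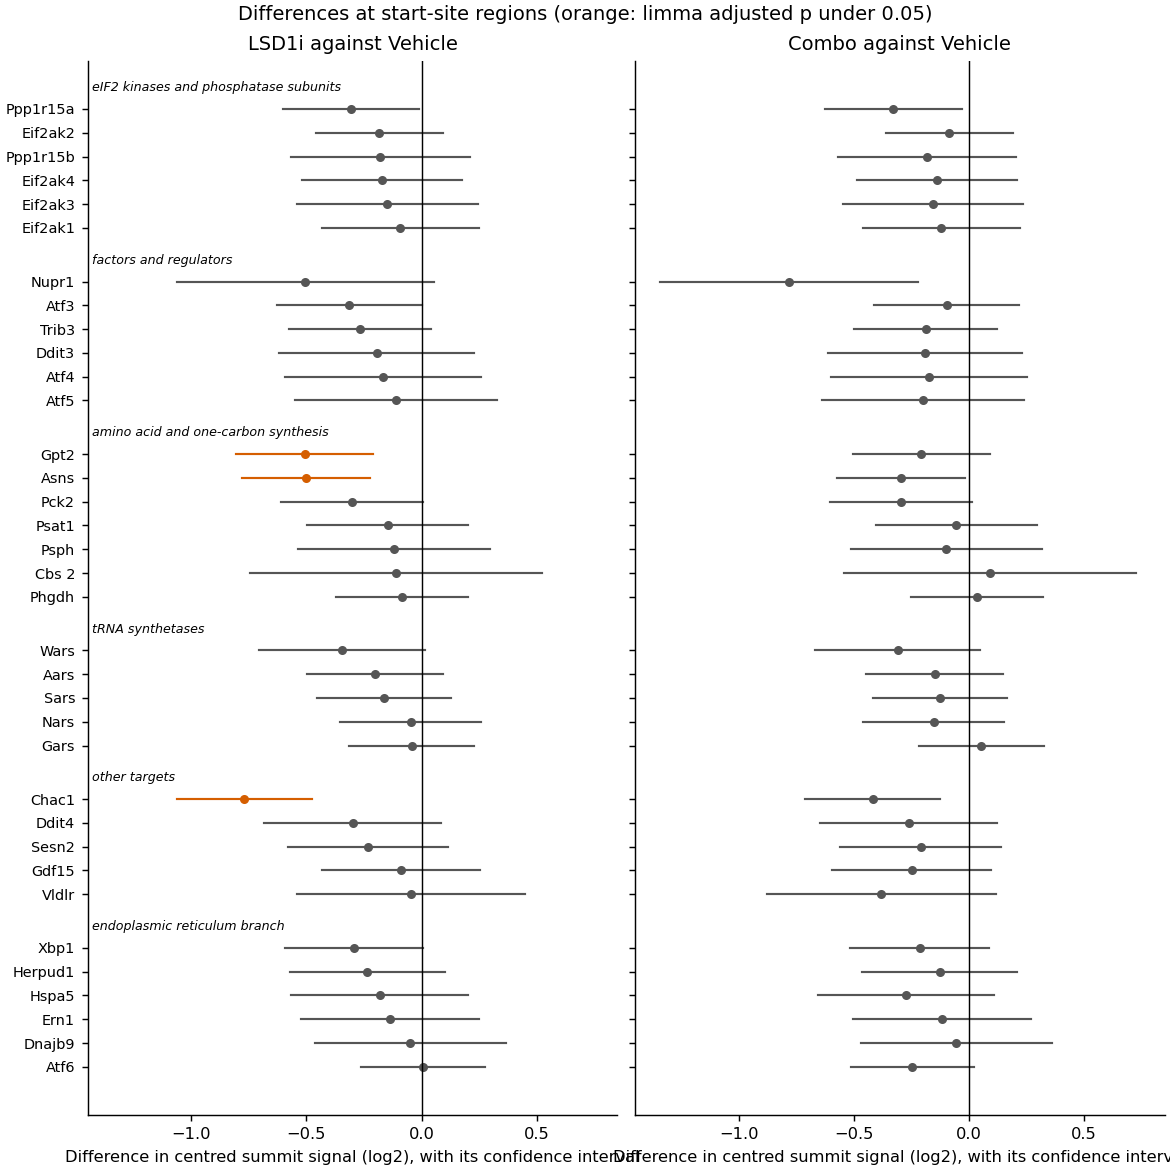
Difference in centred summit signal (log2) from Vehicle at 35 start-site regions for LSD1i (left) and Combo (right), ordered by role, with points for the limma estimate and lines for its 95% interval; orange marks an adjusted p under 0.05. Chac1, Asns and Gpt2 are orange on the left, no region is on the right, and most points lie slightly below 0.

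With all 3 drugs given, no start-site region of the set passed the test. In Combo against Vehicle limma called 0 of 35 (4 at an unadjusted p under 0.05: Chac1, Nupr1, Ppp1r15a and Asns), against 1.57% of all start-site regions closed and 1.17% opened. Chac1 stood at -0.42 ± 0.15 (SE, n = 2 per group; adjusted p = 0.0835), and Asns at -0.30 ± 0.14 (adjusted p = 0.225). The lowest value was that of Nupr1, at -0.78 ± 0.29 (adjusted p = 0.0915), from pileups of 35 and 34 fragments in Vehicle, 18 and 28 in LSD1i and 27 and 21 in Combo. The median over the set was -0.18 and over all start-site regions -0.15, and scaled by depth these medians turn to 0.04 and 0.08, since that scaling shifts every region by 0.22. With the letter at the end of the library names as a term Chac1 was called closed, and without 6MP replicate 1 and CER replicate 2 Chac1 and Wars were.

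Combo and LSD1i share the Vehicle libraries, so the difference between them was tested directly. limma called 0 of 35 start-site regions of the set in Combo against LSD1i (1 at an unadjusted p under 0.05) and 0.112% of 43669 regions in either direction. That 1 was Chac1, which stood 0.35 ± 0.15 higher in Combo (SE, n = 2 per group; 95% interval 0.06 to 0.65; adjusted p = 0.375), with both Combo libraries above both LSD1i libraries. Gpt2 stood 0.30 ± 0.15 higher (interval 0.00 to 0.60; adjusted p = 0.488) and Asns 0.21 ± 0.14 higher (interval -0.07 to 0.48; adjusted p = 0.662). A difference between the treatments at these starts was not established, and the intervals do not show that they act alike.

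Using every library that saw the inhibitor, 6 start-site regions of the set closed. In the 4 libraries of LSD1i and Combo against the 6 of Vehicle, 6MP and CER, limma called Chac1, Wars, Asns, Gpt2, Ppp1r15a and Atf6 closed, out of 34 tested. It called 21.6% of 10690 start-site regions of all genes closed and 2.13% opened, so the share in the set is no larger than that of all starts. Chac1 stood out by size, with -0.68 ± 0.10 (SE; adjusted p = 4.17e-06), and was number 48 from the lowest among all starts. Wars, described below, was next, and Asns stood at -0.32 ± 0.09 (adjusted p = 0.0107) and Gpt2 at -0.31 ± 0.10 (adjusted p = 0.0221). All 34 differences were below 0, against 87.8% of all start-site regions, and the medians were -0.17 for the set and -0.18 for all starts. Scaled by depth, which shifts this comparison by 0.28, the median of the set becomes 0.11 and no region is called.

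Wars, Ppp1r15a and Atf6 passed only in this wider comparison. The tryptophanyl-tRNA synthetase Wars had 7.33 and 7.20 in Vehicle, 6.94 and 7.50 in 6MP, 7.40 and 7.44 in CER, 6.93 and 6.91 in LSD1i, 6.94 and 6.97 in Combo and 7.19 and 7.14 on Day0. Ppp1r15a, which recruits a phosphatase to eIF2 and ends the response, had 6.70 and 6.83 in Vehicle, 6.45 and 6.70 in 6MP, 6.76 and 6.87 in CER, 6.52 and 6.40 in LSD1i, 6.51 and 6.36 in Combo and 6.58 and 6.46 on Day0. Atf6 had 5.75 and 5.61 in Vehicle, 5.77 and 5.68 in 6MP, 5.94 and 6.09 in CER, 5.70 and 5.68 in LSD1i, 5.39 and 5.48 in Combo and 5.82 and 5.60 on Day0. At Wars and Ppp1r15a the overlap comes from 6MP replicate 1, the library of weakest enrichment, while at Atf6 the LSD1i libraries sit among the Vehicle ones and Combo is lowest. The estimates were -0.36 ± 0.12 for Wars (adjusted p = 0.0244), -0.27 ± 0.10 for Ppp1r15a (adjusted p = 0.0404; 0.012 by depth) and -0.25 ± 0.09 for Atf6 (adjusted p = 0.0417; 0.038 by depth). The count moved with single libraries, as did the share of all start-site regions: without 6MP replicate 1, 27 of 34 start-site regions of the set were closed and 60.1% of those of all genes. Without Combo replicate 1 it was 1 (8.28% of all), without LSD1i replicate 1 or 2 it was 2 (15.0% and 7.69% of all), and without CER replicate 1 or Combo replicate 2 it was 3 (16.0% and 14.4% of all). Without 6MP replicate 1 and CER replicate 2 together, an alternative chosen after seeing the data, 24 of 35 were closed and 52.1% of all start-site regions. Chac1 was closed under each of these settings, and not when scaled by depth (-0.40, adjusted p = 0.575).

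Neither metabolic drug alone, nor 2 days in DMSO, moved a start of these genes past the test. In 6MP against Vehicle limma called 0 of 35 (0 at an unadjusted p under 0.05) and 0% of 37143 regions, with the replicates of unequal enrichment. In CER against Vehicle it called 0 of 34 (1 at an unadjusted p under 0.05, Atf6, at 0.34 with an interval of 0.07 to 0.61) and 0.328% of all regions. In Vehicle against Day0 it called 0 of 35 (1 at an unadjusted p under 0.05, the glycyl-tRNA synthetase Gars, at -0.32) and 0.0812% of all regions. Both Day0 libraries, and no others, have names ending in P, and the meaning of that letter cannot be told apart from time in culture.

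The authors' own tests made more calls in the set. In the authors' deposited table for LSD1i, 55 regions of the set were listed, 48 closed and 7 opened, in 33 genes. Its closed rows overlapped 31 of the 34 start-site regions called in all libraries, of which 30 are assigned to the gene of the set and 1, at the start of Ppp1r15a, to the neighbouring Plekha4. They overlapped 76.0% of 10640 such regions of all genes, while over everything the authors tested 34.3% closed and 6.81% opened. The closed regions had a median fold of -0.46 in the set and -0.48 over all, on the log2 scale of the authors' deposited table. Chac1 had the lowest start-site fold in the set, -1.10 (levels 9.63 in LSD1i and 10.73 in Vehicle; FDR 1.14e-15; chromosome 2, 119350534 to 119351654), in the authors' deposited table. The remaining listed starts in the authors' deposited table lay between -0.66 (Gpt2) and -0.26 (Dnajb9, a co-chaperone of the endoplasmic reticulum). By role, the authors' deposited table closed a start of 5 of 6 kinase and phosphatase genes, 5 of 6 factors, 6 of 8 amino acid enzymes, 4 of 5 tRNA synthetases, 4 of 6 other targets and 6 of 6 endoplasmic reticulum genes.

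The Combo table read differently at the starts. In the authors' deposited table for Combo, 0 of the 34 start-site regions were listed, against 0.348% closed and 2.05% opened of the 10640 of all genes, and 2.14% closed and 12.8% opened of all regions tested. It listed 11 regions of the set away from starts, 8 opened and 3 closed, in 6 genes. The authors' deposited table for CER listed none (0.361% of all regions listed), and that for Vehicle against Day0 listed 3 opened (1.80% of all), all of them around Psat1. Both drug tables share the Vehicle libraries, and how the authors scaled the libraries is not given in the sources used here.

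**Figure D3:**
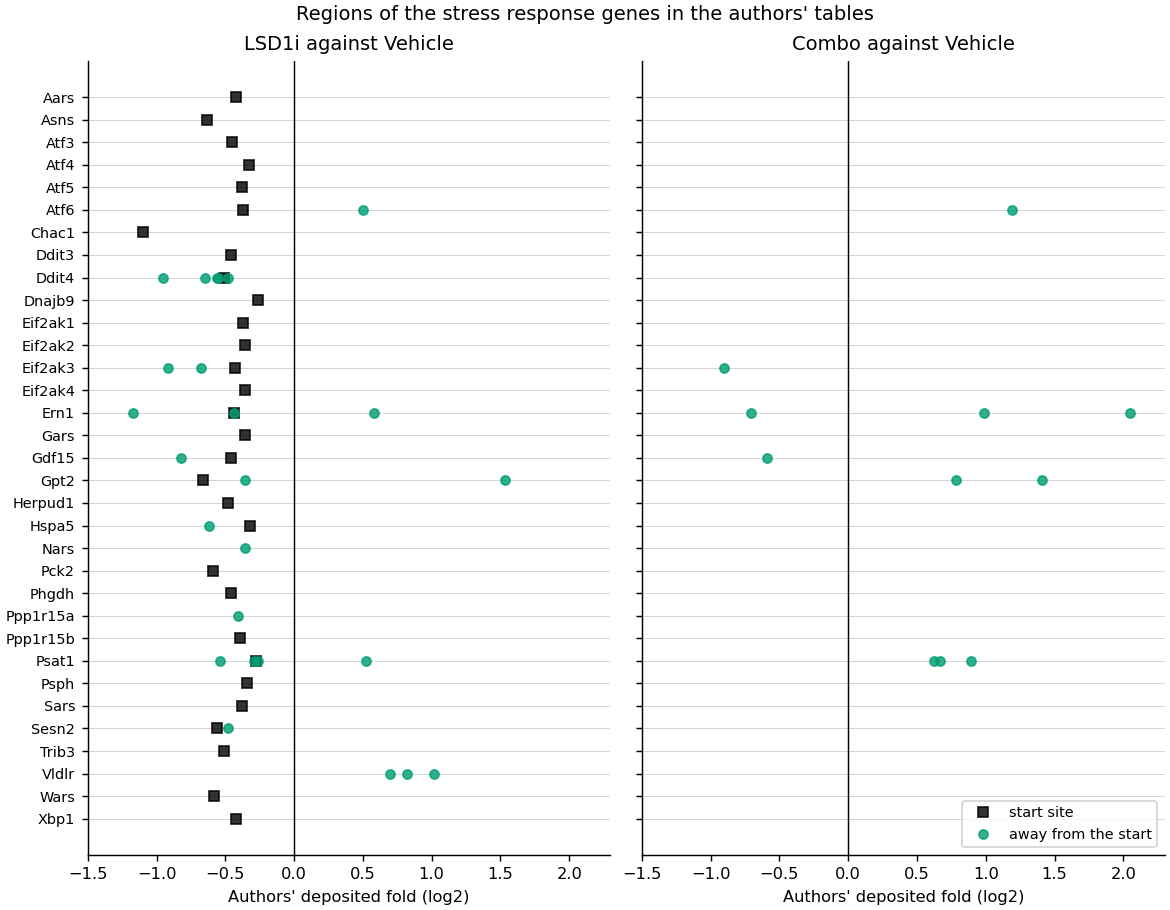
Log2 fold in the authors' deposited tables for every listed region of the set, by gene, for LSD1i (left) and Combo (right); black squares are start-site regions and green circles regions away from the start. Start sites are on the left only and all below 0, with Chac1 lowest, and the regions of Combo all lie away from starts.

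Away from the starts, the largest gains under the inhibitor were around Psat1, Ern1, Gpt2, Atf6 and Vldlr, and the largest losses around Eif2ak3, Ern1, Ddit4 and Gdf15. These regions entered the set because tables made from the same libraries list them, so their differences are given as descriptions, without a test. Distances below run from the gene start to the middle of the region, positive in the direction of the gene. Psat1, phosphoserine aminotransferase of serine synthesis, had 6 such regions, the most of any gene in the set. Their differences had both signs. The authors' deposited table for LSD1i closed those at +41.3 kb (-0.54), +122.8 kb (-0.29) and +87.3 kb (-0.26). It opened the one at +109.3 kb (0.52) and did not list those at +20.1 and +95.0 kb. The region at +20.1 kb (chromosome 19, 15903838 to 15905229), at the 3' end of the gene in the authors' annotation, had 4.63 and 5.17 on Day0, 5.19 and 5.60 in Vehicle, 5.47 and 5.33 in 6MP, 5.24 and 4.72 in CER, 5.78 and 5.98 in LSD1i and 6.22 and 6.13 in Combo. The 4 libraries with the inhibitor were the highest. The limma estimate was 0.78 ± 0.17 in Combo against Vehicle (SE, n = 2 per group) and 0.49 ± 0.17 in LSD1i against Vehicle, and in Combo the authors' deposited table gave 0.89. In Vehicle against Day0 the authors' deposited fold at this region was 0.64.

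Further from Psat1, the region at +95.0 kb had 3.71 and 4.10 on Day0, 4.02 and 4.03 in Vehicle, 3.67 and 3.40 in 6MP, 3.59 and 3.58 in CER, 4.57 and 4.51 in LSD1i and 4.53 and 4.66 in Combo. That at +109.3 kb had 3.82 and 3.64 on Day0, 4.31 and 4.35 in Vehicle, 4.49 and 3.91 in 6MP, 3.85 and 3.99 in CER, 5.02 and 4.99 in LSD1i and 4.57 and 4.60 in Combo. In both, every library with the inhibitor exceeded every library without it. With inhibitor given against not given, the regions at +20.1, +95.0 and +109.3 kb had differences of 0.77 ± 0.11, 0.85 ± 0.13 and 0.64 ± 0.13 (SE). The authors annotate the latter 2 as distal intergenic, and which gene they act on is not known from these data. At +87.3 kb signal was 7.75 and 7.74 on Day0, 7.91 and 8.06 in Vehicle and 7.58 and 8.16 in 6MP. It was 7.83 and 7.99 in CER, 7.98 and 7.91 in LSD1i and 7.94 and 7.93 in Combo. At +122.8 kb signal was 6.16 and 6.23 on Day0, 6.61 and 6.63 in Vehicle and 6.23 and 6.37 in 6MP. It was 6.43 and 6.26 in CER, 6.56 and 6.47 in LSD1i and 6.52 and 6.41 in Combo. The start of Psat1 itself had a LSD1i difference of -0.15 (adjusted p = 0.675).

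**Figure D4:**
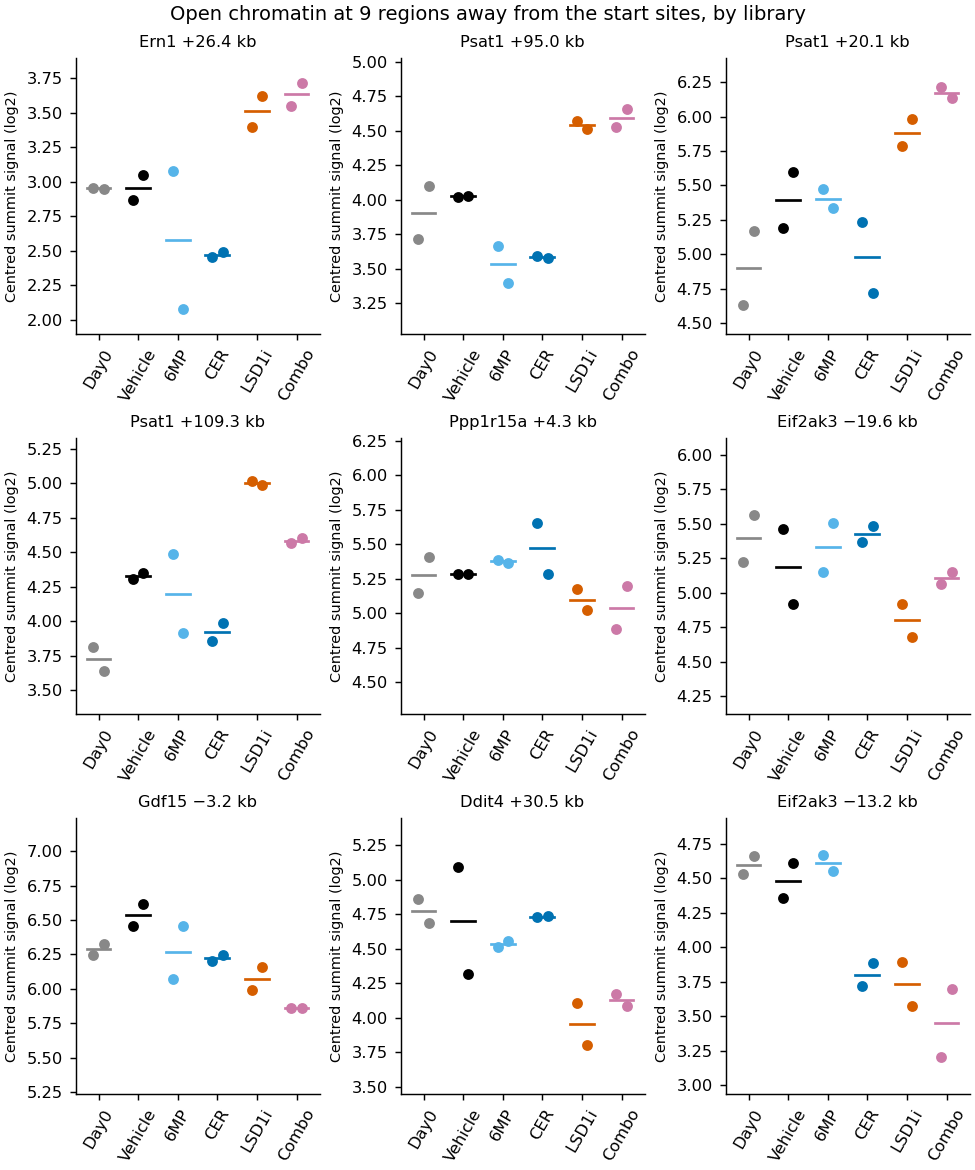
Centred summit signal (log2) at the 9 regions away from the starts that were called in all 12 libraries and had an adjusted p under 0.05 in any comparison, which selects them for display only, with 1 point per library and a bar at the mean of the 2 replicates; all panels span 2 log2 units, not starting at 0. The 4 libraries with the LSD1 inhibitor are highest at the 3 Psat1 regions and at Ern1 +26.4 kb, and lowest at Ddit4 +30.5 kb.

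Ern1, the sensor kinase and RNase of the unfolded protein response, had intronic regions with differences of both signs. The one at +26.4 kb in intron 1 had 2.96 and 2.95 on Day0, 2.87 and 3.05 in Vehicle, 3.08 and 2.08 in 6MP, 2.45 and 2.49 in CER, 3.40 and 3.63 in LSD1i and 3.55 and 3.72 in Combo. Its difference with inhibitor given was 0.90 ± 0.20 (SE), and it stood at 0.58 for LSD1i and 0.99 for Combo in the authors' deposited tables. At +49.4 kb in intron 2, pileups were 30 and 27 fragments on Day0, 43 and 36 in Vehicle, 24 and 15 in 6MP, 28 in CER replicate 1 and 22 and 17 in Combo, with no peak in CER replicate 2 or either LSD1i library. There the authors' deposited table gave the lowest fold of the set, -1.17, in LSD1i, and -0.71 in Combo. limma, which dropped the 3 libraries without a peak, gave -1.27 ± 0.34 in Combo against Vehicle.

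The losses near Eif2ak3, Ddit4 and Gdf15 were seen with the inhibitor. At Eif2ak3 and Gdf15 both cerulenin libraries were also below both Vehicle libraries. Eif2ak3 is the endoplasmic reticulum kinase PERK, and its region at -13.2 kb had 4.53 and 4.66 on Day0, 4.36 and 4.61 in Vehicle, 4.67 and 4.55 in 6MP, 3.72 and 3.89 in CER, 3.89 and 3.57 in LSD1i and 3.20 and 3.70 in Combo. Both CER libraries were as low as the LSD1i ones. The differences were -0.75 ± 0.21 in LSD1i (SE, n = 2 per group), -1.03 ± 0.21 in Combo and -0.68 ± 0.21 in CER, each against Vehicle. The authors' deposited tables gave -0.92 and -0.90 and did not list it for CER.

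Ddit4, an inhibitor of mTORC1 signalling, had 5 listed regions. At +30.5 kb the values were 4.86 and 4.69 on Day0, 5.09 and 4.32 in Vehicle, 4.51 and 4.55 in 6MP, 4.73 and 4.74 in CER, 4.11 and 3.80 in LSD1i and 4.17 and 4.09 in Combo. The inhibitor libraries were the 4 lowest, and the Vehicle replicates were far apart. The difference was -0.75 ± 0.20 in LSD1i against Vehicle, -0.36 without Vehicle replicate 1, and -0.62 ± 0.13 with inhibitor given against not given. Gdf15, a stress-induced cytokine, had at -3.2 kb 6.25 and 6.33 on Day0, 6.46 and 6.61 in Vehicle, 6.07 and 6.46 in 6MP, 6.20 and 6.25 in CER, 5.99 and 6.16 in LSD1i and 5.86 and 5.86 in Combo. Combo was lowest and Vehicle the highest group. Both CER and both Day0 libraries were also below both Vehicle libraries, and 6MP replicate 1 lay between the LSD1i libraries. The difference was -0.67 ± 0.15 in Combo against Vehicle and -0.46 ± 0.15 in LSD1i, and the authors' deposited tables -0.59 and -0.82. Over all regions limma called 3.11% closed and 4.97% opened in Combo against Vehicle, and 14.8% closed and 9.88% opened with inhibitor given. Smaller differences with inhibitor given were that at Eif2ak3 -19.6 kb (-0.36), from 5.46 and 4.92 in Vehicle, 5.15 and 5.51 in 6MP, 5.36 and 5.48 in CER, 4.92 and 4.68 in LSD1i and 5.06 and 5.15 in Combo, with 5.22 and 5.56 on Day0. The other was that at Ppp1r15a +4.3 kb (-0.31), from 5.29 and 5.28 in Vehicle, 5.39 and 5.37 in 6MP, 5.65 and 5.29 in CER, 5.18 and 5.02 in LSD1i and 4.89 and 5.20 in Combo, with 5.15 and 5.41 on Day0.

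Some regions had a called peak only where the inhibitor was given. A region 23.1 kb into Gpt2 (chromosome 8, 85515473 to 85515979), annotated by the authors as a promoter, had pileups of 35 and 34 fragments in LSD1i and 32 and 25 in Combo and no peak in the other 8 libraries. A region in intron 1 of Atf6, at +5.3 kb, had 73 and 82 fragments in LSD1i and 96 and 131 in Combo and likewise no peak elsewhere. This all-or-none pattern of calls was held by 690 of the 73147 union regions (0.943%), including these 2 of the 65. The authors' deposited tables gave Gpt2 1.53 in LSD1i and 1.41 in Combo, and Atf6 0.50 and 1.19. In the authors' deposited table for LSD1i, levels at Gpt2 were 7.56 in LSD1i and 6.03 in Vehicle. At Atf6 they were 7.97 in LSD1i and 7.47 in Vehicle. Ern1 +26.4 kb, called in all 12 libraries, had a Vehicle level of 7.48 there. The missing calls at Atf6 are therefore not an absence of signal. Gpt2 thus had a start that fell in LSD1i and an inner region that was called in LSD1i and Combo alone.

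Other partial patterns were less complete. A region in intron 1 of Ern1, at +12.3 kb, was called in both Combo libraries alone, at 89 and 93 fragments, and had the highest fold of the set in the authors' deposited table for Combo, 2.05 (FDR 0.00193). Vldlr had 3 regions far upstream. The one at -127.1 kb was called at 35 and 41 fragments in LSD1i and 39 in Combo replicate 1, and in no other library. The one at -116.6 kb had 21 and 15 on Day0, 19 and 34 in Vehicle, 22 in 6MP replicate 2, 35 and 53 in LSD1i and 37 and 27 in Combo. The one at -105.9 kb had 20 and 18 on Day0, 23 in Vehicle replicate 2, 26 and 43 in LSD1i and 40 and 30 in Combo. All 3 were opened for LSD1i in the authors' deposited table (1.02, 0.70 and 0.82) and not listed for Combo. Pileups of this size are near the lowest that were called (10 to 14 fragments), so a missing peak can also be a weak one, and limma could not test these regions against Vehicle where a library had no peak.

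**Figure D5:**
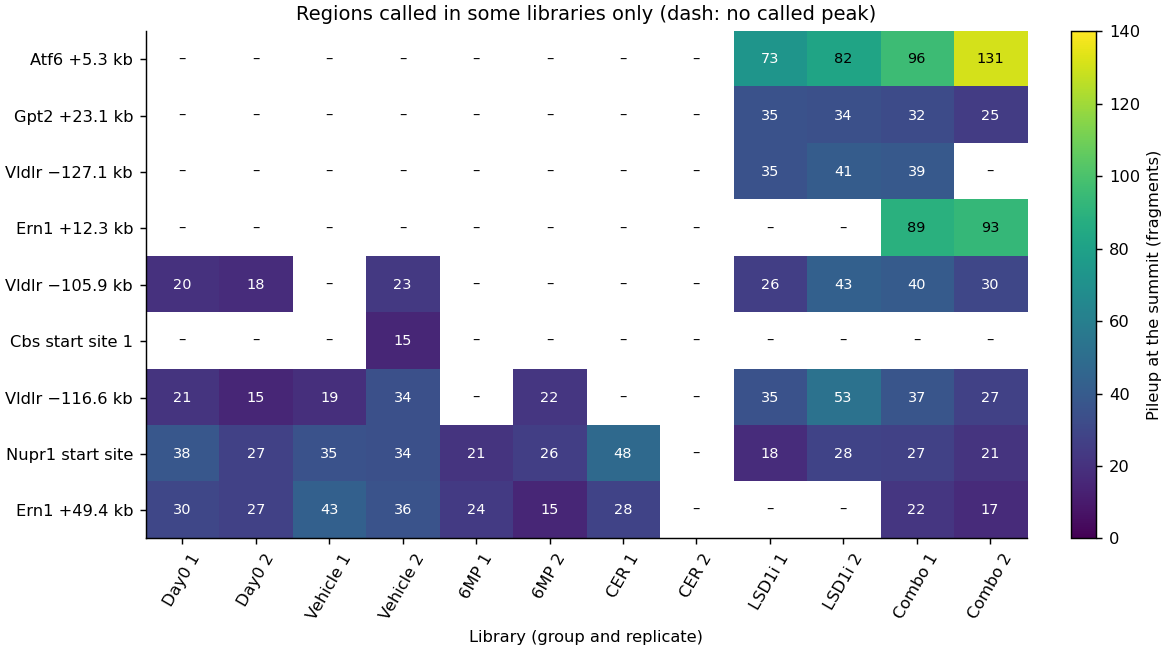
Pileup at the summit (fragments, colour and printed value) for the 9 regions of the set not called in all 12 libraries (columns); a dash marks no called peak. Gpt2 +23.1 kb and Atf6 +5.3 kb are filled in the LSD1i and Combo columns alone, and Ern1 +12.3 kb in Combo alone.

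Genes with the C/EBP-ATF letters and genes without them overlapped in their start-site differences. In LSD1i against Vehicle the median was -0.29 over 10 genes with TGATGNAAN (range -0.77 to -0.04) and -0.16 over 21 regions without it (range -0.51 to -0.05). The 10 include Vldlr, whose peaks covered its match in 0 of 12 libraries. In Combo against Vehicle the medians were -0.24 and -0.16. These are descriptions of a chosen list, without a test, and the lowest value in the LSD1i group is that of Chac1.

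Starts of other genes of the same pathways were counted in the same way. A list of 48 transporters, one-carbon enzymes, other tRNA synthetases, chaperones and partner factors had 48 start-site regions. limma called 0 of 47 in LSD1i against Vehicle (1 at an unadjusted p under 0.05; median -0.19), where 1.95% of all start-site regions were closed. In Combo against Vehicle, where 1.57% of all start-site regions were closed, it called 1 of 48, closed. That was 1 of the 2 start-site regions of Cebpb, a C/EBP partner of Atf4, at -0.68 ± 0.15 (adjusted p = 0.0028, called in 11 libraries). With inhibitor given, 7 of 47 were closed and 0 opened. The lowest was Shmt2, the mitochondrial serine hydroxymethyltransferase, at -0.50 ± 0.11 (adjusted p = 0.00171). The others lay between -0.33 and -0.27. They were Aldh18a1 and Pycr1 of proline synthesis, the cysteinyl- and isoleucyl-tRNA synthetases Cars and Iars, and the chaperone Hyou1. The last was the other start-site region of Cebpb, called in 12 libraries. As for the set, the share closed is below the 21.6% of all start-site regions.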

How the data were processed

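The 12 libraries were grouped by their labels. The submitters' processing notes name MACS2 2.1.2, DiffBind, Bowtie2, Trimmomatic 0.38, Picard 2.18.26 and SAMtools 1.9, and the build mm10, without settings. The authors deposited, per library, a peak list with a score, a fold ratio over local background, and the -log10 p and -log10 q of each summit, all q-values being under 0.01. The authors also deposited comparison tables of log2 levels and log2 folds with a p-value and FDR for the regions past FDR 0.05; the table of 6MP against Vehicle is not used here. The number of regions the authors tested was recovered from the deposited p-values and FDRs.

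Fold ratio and -log10 p were solved for the pileup and background of each summit; the pileup came out whole within 0.001 at 100% of summits in every library, and the smallest background was taken as depth. Read totals are not in the files used here, and counting error at low pileups limits weak regions. Overlapping peaks were merged across libraries into union regions; gene starts came from RefSeq promoters or, for Ppp1r15b, Atf6, Wars and Nars, the RefSeq gene end. Regions called in every library of the compared groups were compared with limma 3.58.1 in R 4.3.3 (mean-dependent prior, all 12 libraries in 1 fit), with Benjamini-Hochberg adjustment over all regions at 0.05. Libraries without a peak at a region were dropped there, with limma's formulas applied per set of remaining libraries, and the fit was checked against limma on simulated data. An exact test of 2 libraries against 2 cannot give a p below 0.333.

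The genes, lists and tests were chosen with earlier results of these data known. Values in every library are given for Atf4, Ddit3, Chac1, Trib3, Asns, Hspa5 and Xbp1, every member region past the threshold, and the 5 largest folds per deposited table and direction. Alternatives were scaling by depth, centring by intensity, fewer libraries, the groups compared alone, a stricter peak threshold, a smaller start window, a replicate block, and a term for the letter that ends the library names (P for both Day0 libraries, R for Vehicle 1, 6MP 2, CER 1 and Combo 2, none for the others), whose meaning is not given in the sources used here.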

Additional observations from a re-analysis of the deposited data

How the results depend on the processing

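The count of start-site calls in LSD1i against Vehicle (3) fell to 0 scaled by depth and to 2 centred by intensity. Whichever single library of these groups was left out, the 3 calls did not all remain. The count rose to 4 without 6MP replicate 1 and CER replicate 2, where 6.92% of all start-site regions were closed. In Combo against Vehicle (0) it was 1 with the library-name letter as a term, 2 without 6MP replicate 1 and CER replicate 2 (an alternative chosen after seeing the data) and 2 at an adjusted p of 0.1. With inhibitor given against not given (6) it was 0 scaled by depth, 2 centred by intensity, 24 without those 2 libraries, and 1 to 27 with single libraries left out. Scaled by depth, Atf6 (0.038) and Ppp1r15a (0.012) reversed sign there, because that scaling moves every region by the same amount. With folds of at least 0.5 in the authors' deposited tables, listed regions of the set fell from 3 to 1 in Vehicle against Day0 and from 55 to 25 in LSD1i. Elsewhere the cause was not tested. For single named regions, 401 of 496 values kept their direction and side of the threshold, 87 lost the call, 6 gained one and 2 reversed. Pileups of 10 to 14 fragments at the smallest summits limit the weak regions.

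Replicate numbers did not pair the samples: over 15 pairs of groups the correlation of same-numbered deviations was -0.34 to 0.25, 3 were over 0.1, and 4 of 12 libraries correlated best with their own number. With a replicate block the start-site calls were 3 in LSD1i against Vehicle, 0 in Combo against Vehicle, 0 in the other pairwise comparisons and 5 with inhibitor given.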
